A study of Mus musculus with 10 samples.

Results

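The genes described here are 40 genes of DNA replication and S phase, chosen by name as the loaders, helicase subunits, polymerases, clamp proteins and nucleotide enzymes of the replication fork, with their regulators E2F and cyclin E. All 40 were found among the 23992 gene symbols of the deposited tables, and all 40 passed the filter on low counts in each comparison. The RNA of 10 libraries came from Tregs (regulatory T cells, the CD4 lineage set by the transcription factor Foxp3) of C57BL/6J mice. Natural Tregs from spleens of wild-type mice were stimulated in culture for 24 h with anti-CD3 and anti-CD28, which engage the T cell receptor (TCR), together with thymic stromal lymphopoietin (TCR + TSLP, 2 libraries) or without it (TCR, 2 libraries). TSLP is an epithelial cytokine whose receptor holds the product of Crlf2. Lung Tregs came from mice immunized with ovalbumin (OVA) that had allergic lungs and carried Crlf2 fl/fl with Foxp3 YFP-Cre (Crlf2-deleted, 3 libraries) or Foxp3 YFP-Cre alone (control, 3 libraries), so Cre is driven from Foxp3 and the controls carry it too. Whether libraries of a group come from different mice or cultures is not stated in the labels. The p-values therefore speak only to the spread among these libraries, part or all of which may be technical.

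Replication is licensed in G1, when the origin recognition complex, Cdc6 and Cdt1 load the MCM ring onto DNA. At the start of S phase Cdc45 and the GINS complex turn the ring into an active helicase, the primase and DNA polymerase alpha start each strand, and replication factor C (RFC) loads the sliding clamp PCNA for the polymerases that extend it. Ribonucleotide reductase, thymidylate synthase and thymidine kinase supply the nucleotides. Transcription of many of these genes is controlled by E2F factors, which are held back by the retinoblastoma family in resting cells. Resting T cells carry little of this machinery and build it up after stimulation of the TCR.

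The libraries held 27237313 to 51671901 gene reads in spleen and 1439675 to 18349039 in lung, with control lung library 2 the shallowest. The 40 genes took 0.805% and 0.811% of gene reads with TSLP, against 0.612% and 0.663% in the TCR libraries. They took 0.194% to 0.201% in Crlf2-deleted lung Tregs, against 0.168% to 0.224% in control lung Tregs. Levels are given as normalised RPKM, reads scaled to transcript length and to library size after correction for composition (TMM) within the libraries of a comparison. On this scale the summed level of the 40 genes overlapped in spleen, at 3115 to 3188 with TSLP and 2857 to 3204 in TCR. Crlf2 itself was at 6.66, 4.95 and 2.61 normalised RPKM in the Crlf2-deleted libraries and at 68.2, 107 and 77.3 in the controls (log2 fold change -4.16, SE 0.36, adjusted p = 0.00465, edgeR). All 8 T cell and Treg markers had reads in every library, with Foxp3 at a mean of 36.8 with TSLP, 43.8 in TCR, 113 in Crlf2-deleted and 96.6 in control Tregs. Control lung library 3 stood apart. Its erythroid markers summed to 191110 normalised RPKM, against 2086 to 7739 in the other lung libraries, its myeloid markers to 4227 against 288 to 944, and its T cell and Treg markers to 1392 against 2342 to 2785. Bulk RNA cannot tell fewer cycling cells from less RNA per cell.

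TSLP was added to the TCR stimulus to ask what the cytokine changes in activated spleen Tregs. The 40 genes did not move as a block. Of them, 12 rose and 9 fell with TSLP at an adjusted p under 0.05 (edgeR), while 22.7% of all 13214 genes tested were called higher and 23.1% lower. Genes that license origins, form the MCM ring or prime DNA were among those that rose, led by Orc1, Mcm4, Pola1 and Ccne2. Genes of the clamp loader and of thymidylate supply were among those that fell, led by Rfc2 and Tyms. The median log2 fold change of the 40 was 0.04, against 0.008 over all genes tested. The groups did not overlap in 18 members that were higher and 15 that were lower with TSLP, against 38.1% and 37.3% of all genes.

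Directions depend on the scale, since the median of all genes lay 0.24 (log2) higher with library totals as the only scaling and 0.20 higher on the deposited RPKM (limma on log2(RPKM + 1)). With library totals 21 members were called higher and 2 lower, while 38.3% of all genes were called higher and 15.1% lower. On the RPKM 21 were called higher and 1 lower, beside 43.0% and 9.45% of all genes. Of the 21 members called, 10 kept call and direction under all 6 other scalings and trend corrections, namely Orc1, Cdc6, Mcm3, Mcm4, Mcm5, Mcm10, Pola1, Rrm2 and Ccne2 among the higher ones and Rfc2 alone among the lower ones. Without TSLP library 1 there were 7 higher and 4 lower members (12.7% and 14.9% of all genes), and without library 2 there were 7 and 2 (10.6% and 13.1%). With all 4 groups in 1 fit, which also changes the filter and the scaling, 3 rose and 1 fell (3.75% and 5.64% of all genes).

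**Figure D1:**
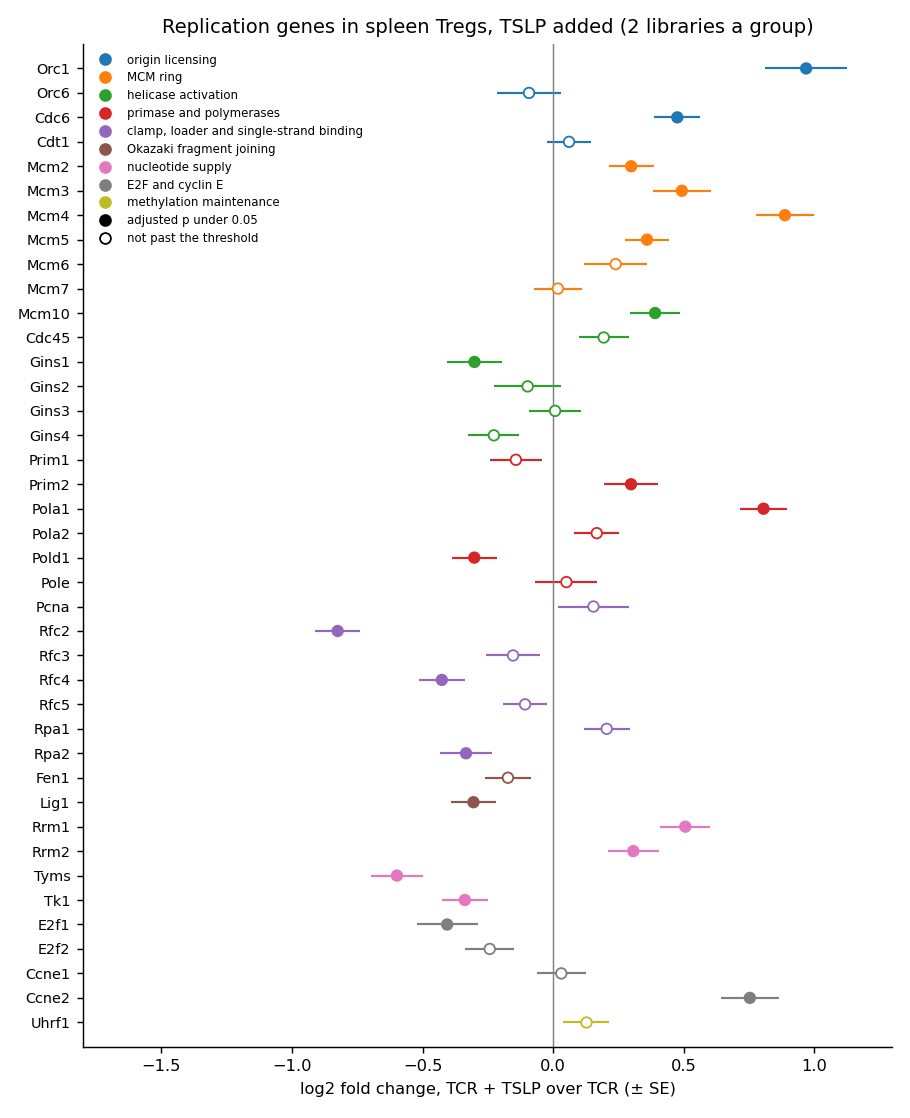
Log2 fold changes of the 40 replication genes, TCR + TSLP over TCR, with SE, grouped by role and n = 2 libraries a group. Filled points passed an adjusted p of 0.05. Orc1 is farthest to the right at 0.97 and Rfc2 farthest to the left at -0.83.

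Promoter windows are shown for members that moved most with TSLP, since E2F controls many genes of this kind. RefSeq (GRCm38.p6) gave a window from 250 bases before to 50 after the start for 32 of the 40 genes. Where a gene had several windows only the first listed was searched, as in Lig1 (3 windows) and E2f2, Fen1, Mcm7 and Uhrf1 (2 each). The start used lay at the 5′ end of the gene's annotated span in 22 of the 32, and inside the span in the others. It lay 3749 bases inside in Orc1, 466 in E2f1 and 442 in Cdc6, so these windows need not hold the main promoter. The E2F motif was searched as TTTGGCGC, TTTGCCGC, TTTCGCGC and TTTCCCGC on both strands. It occurred in 12 of the 32 windows (37.5%), against 2.316% of 27025 promoters of the same length. The CCAAT box (CCAAT, both strands) occurred in 20 of the 32 (62.5%, against 37.92%), and the CHR element of mitotic genes (TTTGAA, both strands) in 4 (12.5%, against 18.105%). Among members that rose with TSLP, an E2F match lay in Orc1, Cdc6, Mcm3, Mcm5 and Pola1, and none in Mcm2, Mcm10, Rrm1 and Rrm2. Among those that fell, a match lay in Pold1 and not in E2f1, Lig1, Rfc4, Rpa2, Tk1 or Tyms. Matches also lay in Cdt1, E2f2, Gins3, Mcm6, Mcm7 and Rfc3, which did not pass. The windows below are those of the largest rises with an E2F match, Orc1 and Pola1 (232 bases inside its span). With them are the largest changes without a match, Tyms (20 bases inside) and Rrm1, among genes that have a window. The printed pairing of a match with a rise is set by this rule. Capitals mark the E2F match, which starts at base -27 from the start used in Orc1 (chr4:108579204-108579503, plus strand) and at base -138 in Pola1 (chrX:93632106-93632405, minus strand). Tyms (chr5:30073576-30073875, minus strand) and Rrm1 (chr7:102441445-102441744, plus strand) have no match to these letters in the window.
Orc1: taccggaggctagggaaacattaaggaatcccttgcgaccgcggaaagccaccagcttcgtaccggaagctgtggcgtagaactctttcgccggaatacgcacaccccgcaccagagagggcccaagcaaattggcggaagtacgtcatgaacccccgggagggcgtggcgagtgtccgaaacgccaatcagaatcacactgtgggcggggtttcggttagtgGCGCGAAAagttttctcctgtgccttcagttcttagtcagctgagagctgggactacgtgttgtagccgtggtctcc
Pola1: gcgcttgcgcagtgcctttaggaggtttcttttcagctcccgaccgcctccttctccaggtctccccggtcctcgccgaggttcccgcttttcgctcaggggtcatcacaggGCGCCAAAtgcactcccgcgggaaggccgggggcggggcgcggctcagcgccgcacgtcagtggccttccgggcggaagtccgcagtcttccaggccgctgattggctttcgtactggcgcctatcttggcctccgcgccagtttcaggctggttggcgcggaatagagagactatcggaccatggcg
Tyms: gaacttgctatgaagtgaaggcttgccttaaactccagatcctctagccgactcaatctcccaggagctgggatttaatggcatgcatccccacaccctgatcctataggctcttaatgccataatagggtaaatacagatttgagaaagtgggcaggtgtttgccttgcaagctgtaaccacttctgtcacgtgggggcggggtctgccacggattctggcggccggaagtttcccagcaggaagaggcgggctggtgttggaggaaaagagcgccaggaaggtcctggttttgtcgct
Rrm1: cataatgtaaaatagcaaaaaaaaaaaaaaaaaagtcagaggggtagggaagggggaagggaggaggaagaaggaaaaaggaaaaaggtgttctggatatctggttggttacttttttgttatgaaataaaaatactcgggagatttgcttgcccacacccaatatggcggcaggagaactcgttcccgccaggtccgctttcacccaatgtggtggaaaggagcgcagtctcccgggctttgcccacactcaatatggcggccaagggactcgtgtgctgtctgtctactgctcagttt

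Of the 4 licensing genes 2 rose. Orc1, the largest subunit of the origin recognition complex (chr4:108575705-108616030, plus strand, RefSeq span on GRCm38.p6), was at 13.0 and 14.0 normalised RPKM with TSLP and at 5.67 and 8.11 in TCR (log2 fold change 0.97, SE 0.16, adjusted p = 0.00212). Cdc6, which helps the complex load the MCM ring, was at 21.1 and 20.8 with TSLP and at 14.7 and 15.4 in TCR (0.48, SE 0.09, adjusted p = 0.00354). Both TSLP libraries lay above both TCR libraries in these genes. Neither Cdt1, the other loading factor (0.06), nor Orc6, a small origin recognition subunit (-0.09), passed. The gene span of Orc1 overlaps Prpf38a, annotated on the other strand. The sources used here give no strand rule for the counts, so reads of overlapping genes may be shared. Of the other members that passed with TSLP this touches Ccne2 (Ints8), E2f1 (Necab3), Pold1 (Mir7053), Lig1 (Zswim9), Rfc4 (Eif4a2) and Tk1 (Afmid). Through predicted genes it also touches Pola1, Prim2 and Gins1.

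Of the 6 subunits of the MCM ring, the hexamer that unwinds DNA, 4 rose and 0 fell (median 0.33), and 3 to 6 rose and 0 fell under the other scalings and trend corrections. Mcm4 (chr16:15623897-15637400, minus strand) changed most, with 90.5 and 91.8 normalised RPKM with TSLP, against 44.3 and 54.2 in TCR (log2 fold change 0.89, SE 0.11, adjusted p = 0.000610). Mcm3 was at 155 and 156 with TSLP and at 99.0 and 122 in TCR (0.49, SE 0.11, adjusted p = 0.00846). Mcm5 was at 133 and 136 with TSLP and at 102 and 108 in TCR (0.36, SE 0.09, adjusted p = 0.0106). Mcm2 was at 94.6 and 102 with TSLP and at 80.5 and 79.5 in TCR (0.30, SE 0.09, adjusted p = 0.0231). In all of these the TCR libraries lay below the TSLP libraries. Mcm6 and Mcm7 had log2 fold changes of 0.24 and 0.02 (adjusted p = 0.138 and 0.884), and the Mcm7 libraries overlapped. The subunits were therefore closer in level with TSLP, where the highest mean was 1.85 times the lowest, against 3.13 times in TCR. Mcm7 was 1.745 and 1.69 times Mcm4 with TSLP, against 3.29 and 3.01 times in TCR. The ring's summed level was 804 normalised RPKM with TSLP and 641 in TCR. Mcm7 also holds Mir25, Mir93 and Mir106b and overlaps Ap4m1.

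Among factors that activate the helicase, Mcm10, which joins the ring as the origin fires, rose (30.1 and 31.0 normalised RPKM with TSLP, 21.8 and 24.7 in TCR, log2 fold change 0.39, SE 0.10, adjusted p = 0.0122). Gins1, a subunit of the GINS complex, fell (37.7 and 35.2 with TSLP, 41.9 and 47.9 in TCR, -0.30, SE 0.11, adjusted p = 0.0473), but its sign turned to 0.07 on the RPKM scale and to 0.14 with the trend on transcript length removed. Cdc45 and the other 3 GINS genes ranged from -0.23 to 0.19 and did not pass. Cdc45 was called higher with library totals, on the RPKM scale and with both trend corrections. Gins2 was called higher with both trend corrections and Gins3 on the RPKM scale. Pola1, the catalytic subunit of DNA polymerase alpha (chrX:93304766-93632387, minus strand), rose to 15.1 and 16.01 with TSLP, against 8.91 and 8.86 in TCR (0.81, SE 0.09, adjusted p = 0.000440). Prim2, the large primase subunit, was at 27.5 and 27.1 with TSLP and at 20.5 and 23.9 in TCR (0.30, SE 0.11, adjusted p = 0.0479), while the catalytic subunit Prim1 was at -0.14 and did not pass. Prim2 kept its call under 8 of 15 alternatives and lost it with DESeq2 and with all 4 groups in 1 fit, among others. Pola2, the regulatory subunit, was at 0.17 and Pole, the catalytic subunit of the leading-strand polymerase, at 0.05, and neither passed. Pold1, the catalytic subunit of the lagging-strand polymerase, fell (52.6 and 54.8 with TSLP, 68.8 and 63.6 in TCR, -0.30, SE 0.09, adjusted p = 0.0232) but was at 0.07 on the RPKM scale.

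Of the 7 genes for the clamp, its loader and the single-strand binding protein, 0 rose and 3 fell (median -0.15). With library totals 2 rose and 1 fell (median 0.08), beside 38.3% and 15.1% of all genes (median 0.24). On the RPKM scale 2 rose and 1 fell (0.21), beside 43% and 9.45% of all genes (0.20). With the length trend removed 1 rose and 1 fell (0.05), beside 23.9% and 17.2% of all genes (0.06). Rfc2, a small subunit of the loader (chr5:134582690-134598328, plus strand), was at 88.3 and 83.0 normalised RPKM with TSLP and at 155 and 148 in TCR (log2 fold change -0.83, SE 0.09, adjusted p = 0.000332). Rfc4, another small subunit, was at 63.4 and 60.2 with TSLP and at 81.8 and 84.3 in TCR (-0.43, SE 0.09, adjusted p = 0.00567). Both genes were separate between groups. Rfc2 kept its call under all 15 alternatives, with log2 fold changes from -0.87 to -0.45. Rfc4 kept its call under 8 of the 15, with log2 fold changes from -0.47 to -0.05. The other small subunits Rfc3 and Rfc5 were at -0.15 and -0.11, neither past the threshold. Rpa2, a subunit of the single-strand binding protein RPA, was at 57.2 and 51.8 with TSLP and at 64.6 and 72.8 in TCR (-0.33, SE 0.10, adjusted p = 0.0275, and 0.04 on the RPKM scale), while Rpa1, its large subunit, was at 0.21 and did not pass (adjusted p = 0.091). Pcna, which encodes the clamp and was the most abundant of the 40 in spleen, was at 633 and 591 with TSLP and at 471 and 628 in TCR. Its groups overlapped (0.15, SE 0.13, adjusted p = 0.377), though it was called higher with library totals, on the RPKM scale and with both trend corrections. Lig1, the ligase that joins Okazaki fragments, fell (101 and 94.7 with TSLP, 121 and 121 in TCR, -0.30, SE 0.09, adjusted p = 0.0203) and was at 0.06 on the RPKM scale. Fen1, the nuclease that trims the fragments, was at -0.17 and did not pass. Rfc4 overlaps Eif4a2 on the other strand.

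Nucleotide supply split by enzyme. Rrm1, the large subunit of ribonucleotide reductase, rose to 115 and 112 normalised RPKM with TSLP, against 74.3 and 85.1 in TCR (log2 fold change 0.51, SE 0.10, adjusted p = 0.00399). Rrm2, its small subunit, was at 151 and 149 with TSLP and at 113 and 130 in TCR (0.31, SE 0.10, adjusted p = 0.0329). Both enzymes of thymidylate supply fell, with the call kept under 12 of 15 alternatives for Tyms and 7 of 15 for Tk1. Tyms lost its call on both RPKM scales and with all 4 groups in 1 fit, with log2 fold changes from -0.76 to -0.21 over the alternatives. Tyms, thymidylate synthase, was at 36.6 and 35.9 with TSLP and at 59.0 and 50.8 in TCR (-0.60, SE 0.10, adjusted p = 0.00212), counted on a non-coding transcript row that shares nearly all its reads with the coding row. Tk1, thymidine kinase, was at 92.0 and 91.3 with TSLP and at 111 and 121 in TCR (-0.34, SE 0.09, adjusted p = 0.0156), but its sign turned to 0.03 on the RPKM scale and to 0.07 with length and GC trends removed. Tk1 overlaps Afmid on the other strand.

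Among the regulators, Ccne2, 1 of the 2 cyclins E that drive cells into S phase, rose to 18.1 and 16.9 normalised RPKM with TSLP, against 9.58 and 11.2 in TCR (log2 fold change 0.75, SE 0.11, adjusted p = 0.00127). Ccne1, the other cyclin E, was at 46.9 and 46.7 with TSLP and at 43.3 and 48.2 in TCR and did not pass (0.03, adjusted p = 0.80). Ccne1 was thus 2.59 and 2.75 times Ccne2 with TSLP, against 4.52 and 4.30 times in TCR. E2f1, an activating E2F, fell (18.8 and 17.0 with TSLP, 25.8 and 21.6 in TCR, -0.41, SE 0.12, adjusted p = 0.0227). E2f2, another activating E2F, was at -0.24 and Uhrf1, which guides maintenance of DNA methylation behind the fork, at 0.13, and neither passed. The call on E2f1 was lost under 6 of 15 alternatives, among them library totals and without TSLP library 2.

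**Figure D2:**
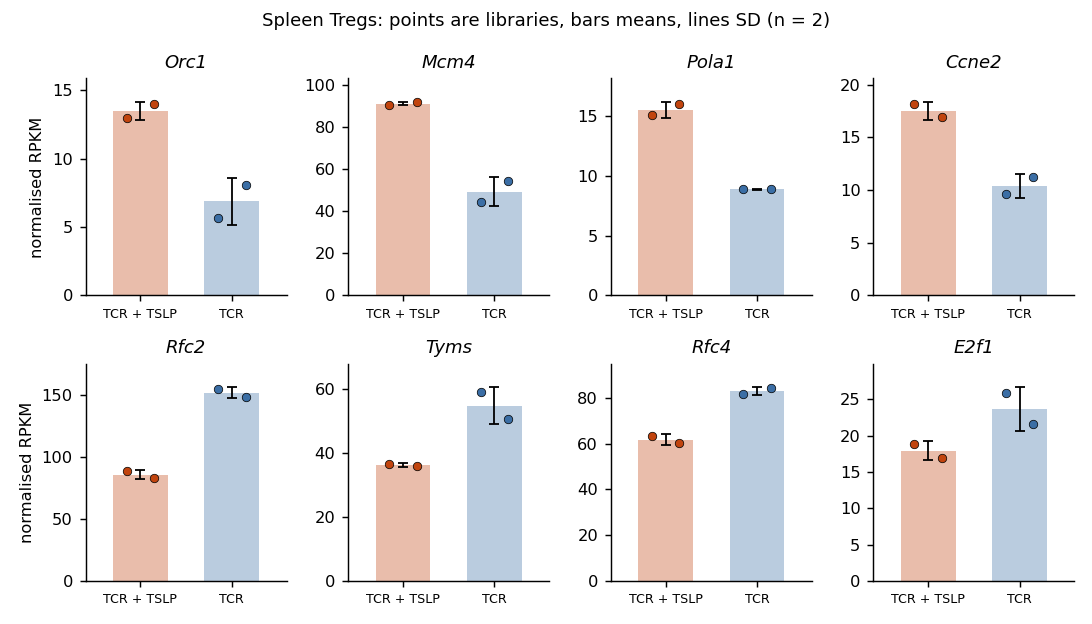
Normalised RPKM of 8 replication genes in spleen Tregs, TCR + TSLP (left) and TCR (right), with points for libraries, bars for means and lines for SD (n = 2). Orc1, Mcm4, Pola1 and Ccne2 lie higher with TSLP, Rfc2, Tyms, Rfc4 and E2f1 lower, with no overlap between groups in any of the 8. All 8 passed the threshold in these same libraries, which favours groups that do not overlap.

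Fold changes in this comparison moved with transcript length. Over all genes the median log2 fold change was -0.23 for transcripts of 1000 to 2000 bp, 0.10 for 2000 to 4000 bp and 0.19 from 4000 bp. The 14, 22 and 4 members in these classes had medians of -0.15, 0.20 and 0.26. Transcripts of the 12 genes that rose had a median length of 3396.5 bp, with the shortest at 1976 bp, those of the 9 that fell 1782 bp and those of the other 19 genes 2191 bp. With the length trend removed 14 members rose and 6 fell (23.9% and 17.2% of all genes), and with length and GC trends removed 16 rose and 4 fell (23.2% and 16%). Orc1, Mcm4, Pola1 and Ccne2 remained among the higher ones in both and Rfc2 and Tyms among the lower ones. Between libraries, 31 of the 40 genes were lower in TCR library 1 than in TCR library 2. Without library 1 the counts were 14 rose and 15 fell (28.4% and 27.3% of all genes), and without library 2 they were 17 and 9 (31.8% and 30.5%).

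**Figure D3:**
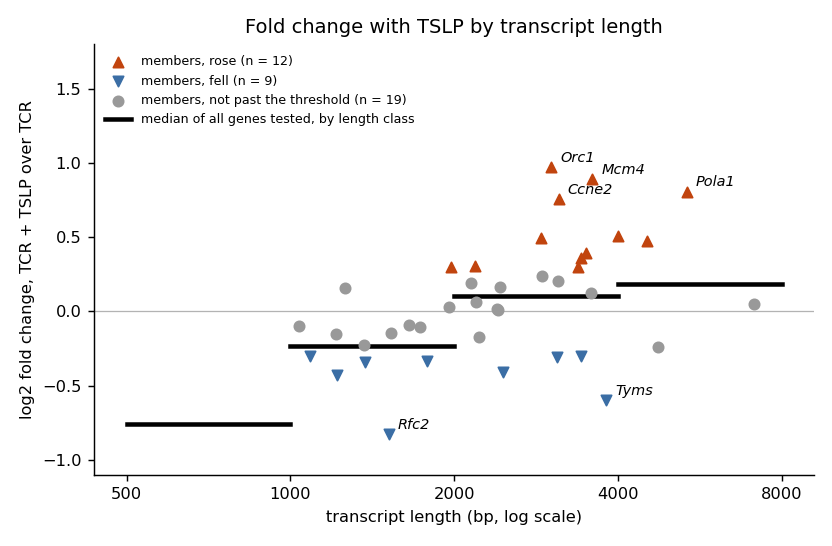
Log2 fold change with TSLP against transcript length (log scale) for the 40 genes, with triangles for those that passed, and the median of all genes tested in each length class as a black line. The lines of the shortest and longest class have no fixed outer end. Orc1, Mcm4, Pola1 and Ccne2 lie above the line of their class and Rfc2 and Tyms below it.

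Other replication and cell cycle genes, from lists that hold no member, had more rises than falls with TSLP in each list, though many did not pass. Of 28 further genes of the replication machinery 13 rose and 4 fell (median log2 fold change 0.28), among them Topbp1, which helps origins fire (0.79, SE 0.08), Top1, a topoisomerase (0.76, SE 0.08), and Orc2 (0.54, SE 0.09). Those that fell included Pole3, a small subunit of polymerase epsilon (-1.005, SE 0.12), and Rnaseh2a, a ribonuclease H2 subunit (-0.90, SE 0.10), with Pold4 (-0.62, SE 0.10), which was at 0.09 with length and GC trends removed. Of 17 genes of fork protection and chromatin assembly 7 rose and 3 fell (0.24), with Hells (0.96, SE 0.09), Atad5, which unloads the clamp (0.95, SE 0.10), and the methyltransferase Dnmt1 (0.62, SE 0.09) higher and the chromatin assembly subunit Chaf1b (-0.55, SE 0.09) lower. The other 2 that fell, Chtf18 (-0.35) and Dscc1 (-0.36), both parts of an alternative clamp loader, were at 0.02 and 0.01 on the RPKM scale. Of 17 further genes of nucleotide supply 9 rose and 2 fell (0.28). Dck, deoxycytidine kinase (1.14, SE 0.17), Ppat of purine synthesis (0.69, SE 0.10) and Cad of pyrimidine synthesis (0.56, SE 0.09) rose, while Nme1 (-0.99, SE 0.09) and Dctpp1 (-0.78, SE 0.09) fell, the last at 0.06 with the length trend removed. The summed level of this list was nonetheless lower, at 1427 to 1485 normalised RPKM with TSLP and 1707 to 1786 in TCR, and that of the machinery list overlapped, at 988 to 1010 with TSLP and 960 to 1026 in TCR.

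Of 28 genes that control entry into S phase 14 rose and 3 fell (median 0.30). Tfdp1, the partner that E2F factors need to bind DNA, had the smallest p of this list (128 normalised RPKM with TSLP, 44.4 in TCR, log2 fold change 1.53, SE 0.10, adjusted p = 0.000159). Rbl1 and Rb1, retinoblastoma family members that hold E2F back, rose too (1.16, SE 0.14, and 0.70, SE 0.09). The licensing inhibitor Gmnn (-0.44), the cyclin-dependent kinase inhibitor Cdkn2d (-0.41) and the kinase subunit Cks1b (-0.36) fell, and each turned above 0 with 1 or both trend corrections (0.07, 0.06 and 0.33). Another kinase inhibitor, Cdkn1a, rose (0.61), a call kept in 14 of 15 alternatives. Of 18 mitosis genes 7 rose and 2 fell (0.19), with the spindle motor Kif11 (0.70, SE 0.10), Ccnb1 (0.60, SE 0.10) and Bub1 (0.74, SE 0.13) higher and the centromere histone Cenpa (-0.65, SE 0.09) and Birc5 (-0.63, SE 0.09) lower. The median of each of these 5 lists stayed above 0 under every alternative run. With library totals alone as the scaling, those that rose and fell were 22 and 4 of the machinery, 13 and 1 of fork protection, 11 and 2 of nucleotide supply, 20 and 0 of S-phase entry and 12 and 2 of mitosis, beside 38.3% of all genes called higher and 15.1% lower on that scale. In the same libraries 4 of 7 B and plasma cell markers tested fell, with a sum of 49.0 to 50.4 normalised RPKM with TSLP and 75.7 to 80.1 in TCR, and T cell and Treg markers summed to 1464 to 1470 with TSLP and 1708 to 1715 in TCR. Their part in the replication genes was not tested.

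Deletion of Crlf2 in Tregs asked what loss of the TSLP receptor changes in the allergic lung. No member passed the test by edgeR, where 0.771% of all 12717 genes were called higher and 1.01% lower. Most members lay lower in Crlf2-deleted Tregs all the same, with 34 of 40 below 0 (54.2% of all genes) and a median log2 fold change of -0.32 (-0.04 over all genes). At an unadjusted p under 0.05 there were 11 lower members and 1 higher, against 9.12% and 6.74% of all genes. The groups did not overlap in 14 members that were lower and 1 that was higher, against 11.6% and 10.5% of all genes. DESeq2 called 4 members lower (Mcm10, Rfc5, Rrm1 and Tk1), beside 3.92% of all genes lower and 2.89% higher. With all 4 groups in 1 fit, which also changes the filter and the scaling, 7 were lower, adding Cdc6, Gins2 and Uhrf1, and Lig1 was higher, beside 3.42% and 2.62% of all genes. Without control library 3, which stood apart, 34 members were again below 0, beside 51.3% of all genes. At an unadjusted p under 0.05, 12 were then lower and 1 higher, against 9.4% and 9.75% of all genes. Rrm2 was then called lower (adjusted p = 0.0113), beside 2.17% of all genes. The median was -0.15 with library totals (0.14 over all genes) and turned to 0.04 on the RPKM scale (0.21 over all genes, limma), so the lower levels are relative to the median gene.

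The 6 members with the smallest p were all lower, and none passed the threshold. Choosing by p in these same libraries favours groups that do not overlap. Tk1 was at 19.5, 13.6 and 19.0 normalised RPKM in the Crlf2-deleted libraries and at 36.8, 27.5 and 33.5 in the controls (log2 fold change -0.92, SE 0.22, adjusted p = 0.0846). Every deleted library lay below every control library. Rrm1 was at 10.96, 9.54 and 8.99 in deleted and 15.6, 13.9 and 14.6 in control Tregs (-0.59, SE 0.16, adjusted p = 0.119), again with no overlap. Rfc5 was at 15.5, 11.02 and 12.3 in deleted and 21.4, 19.0 and 26.9 in control Tregs (-0.81, SE 0.23, adjusted p = 0.128). Mcm10 was at 1.198, 0.917 and 1.49 in deleted and 3.64, 4.11 and 2.248 in control Tregs (-1.44, SE 0.42, adjusted p = 0.141), from 21 to 100 reads a library. These groups did not overlap either, though Mcm10 is among the low genes of the lung. Uhrf1 was at 13.6, 16.2 and 18.9 in deleted and 24.7, 28.2 and 21.3 in control Tregs (-0.60, SE 0.18, adjusted p = 0.146). Gins2, a GINS subunit, was at 9.66, 11.6 and 9.36 in deleted and 29.8, 16.5 and 16.9 in control Tregs (-1.055, SE 0.32, adjusted p = 0.153). Without control library 3 these 6 log2 fold changes were -0.91, -0.59, -0.65, -1.67, -0.69 and -1.22 in the order given, and the 6 adjusted p ran from 0.0692 to 0.193. Without control library 1, its highest library, Gins2 was at -0.70 (adjusted p = 0.294).

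Lig1, named here after its values were seen, ran the other way at 29.7, 26.6 and 37.4 normalised RPKM in the deleted libraries and 22.1, 22.3 and 15.1 in the controls (log2 fold change 0.67, SE 0.21, adjusted p = 0.16). It was called higher on the RPKM scale (adjusted p = 0.0365, limma), where 5.99% of all genes were, and without control library 3 it was at 0.50 (adjusted p = 0.195). Mcm6, the most abundant of the 40 genes in lung, was at 86.9, 89.5 and 93.7 in deleted and 87.4, 84.7 and 68.4 in control Tregs, and the groups overlapped (0.17, adjusted p = 0.576). Reads were too few to place Orc1, which had 4 to 35 reads a library in lung (-0.45, SE 0.89). Over all 40 genes the summed level was 735 to 787 in deleted and 804 to 977 in control Tregs, and it was the lowest of the controls in library 3. By role, nucleotide supply summed to 63.5 to 70.8 in deleted and 89.9 to 119 in control Tregs, with no overlap. The clamp, loader and single-strand binding genes (230 to 242 against 265 to 284) were also lower without overlap. So were the primase and polymerases (53.4 to 54.2 against 55.4 to 67.1) and Uhrf1. The MCM ring summed to 217 to 229 in deleted and 215 to 268 in control Tregs, which overlapped, as did the remaining roles.

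**Figure D4:**
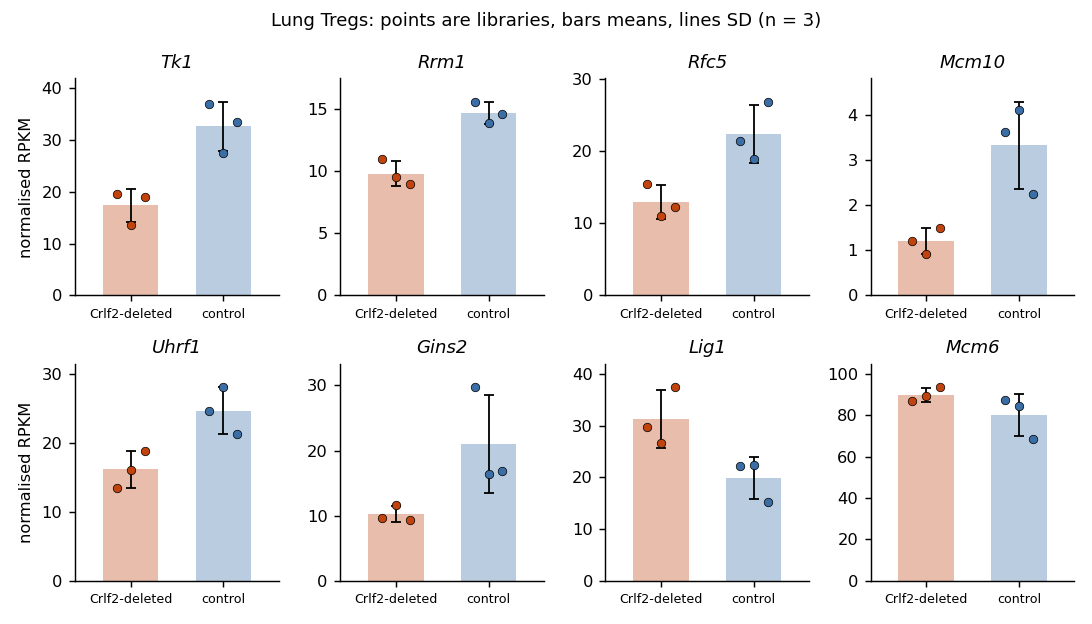
Normalised RPKM of 8 replication genes in lung Tregs, Crlf2-deleted (left) and control (right), with points for libraries in the order 1 to 3, bars for means and lines for SD (n = 3). The 6 genes with the smallest p lie lower in the deleted libraries without overlap, Lig1 lies higher, and Mcm6 overlaps. The 6 were chosen by p in these same libraries, and none passed the threshold.

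Other cell cycle genes lay lower in the same libraries. Of the 4 further lists only Donson, which acts in helicase assembly, was called (7.999 normalised RPKM in deleted and 21.3 in control Tregs, log2 fold change -1.41, SE 0.25, adjusted p = 0.0354). Of the 18 mitosis genes only Birc5, a subunit of the chromosomal passenger complex, was called (8.05 in deleted and 18.1 in control Tregs, -1.17, SE 0.23, adjusted p = 0.046). Each of these calls held in 5 of 17 alternatives, among them without control library 3 (adjusted p = 0.00615 for Donson and 0.0125 for Birc5). The mitosis genes summed to 238 to 255 in deleted and 294 to 360 in control Tregs, with a median log2 fold change of -0.66. Medians of the 4 further lists were -0.25 for the machinery, -0.51 for fork protection, -0.27 for nucleotide supply and -0.29 for S-phase entry. Epithelial and stromal lung markers summed to 4712 to 37473 in deleted and 34418 to 165130 in control Tregs, and T cell and Treg markers to 2415 to 2785 in deleted and 1392 to 2374 in control Tregs. Myeloid markers summed to 916 to 944 in deleted Tregs and to 288 and 369 in control libraries 1 and 2, so they were higher in deleted Tregs once control library 3 (4227) was left out. The part of these differences in the lower replication genes was not tested.

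Set beside the TSLP comparison, which shares no library with this lung comparison, all 12 members that rose with TSLP had a log2 fold change below 0 in Crlf2-deleted lung Tregs, as did 6 of the 9 that fell with TSLP, and 34 of the 40 in all. None of the 40 passed in lung, and the 12 include Pola1 at -0.0084, with a mean of 5.16 in deleted and 5.10 in control Tregs, and Ccne2 at -0.16 (SE 0.73). On the RPKM scale 17 of the 40 lay below 0 in lung, beside 22.3% of all genes. Mcm4 was at 0.89 with TSLP and -0.25 in deleted lung Tregs, Rrm1 at 0.51 and -0.59, and Mcm10 at 0.39 and -1.44. Among those that fell with TSLP, Tk1 was at -0.34 with TSLP and -0.92 in deleted lung Tregs and Lig1 at -0.30 and 0.67.

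The last comparison set control lung Tregs against TCR-stimulated spleen Tregs. Tissue, culture, genotype and possibly the library kit differ between them and cannot be told apart. Members were lower in lung, where 39 of 40 fell and 0 rose, against 26.3% of all 13325 genes called lower and 25.5% called higher. The groups were separate in all 40, each lower in lung, while 37.9% of all genes were separate and lower and 33.3% separate and higher. The median log2 fold change was -1.95, against 0.002 over all genes. Without control lung library 3 there were again 39 falls (29.1% of all genes), without TCR library 1 there were 36 (14.1%) and without TCR library 2 there were 31 (13.0%).

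Licensing genes had the lowest median of the roles, -3.02. Orc1 was at 0.158, 1.39 and 0.727 normalised RPKM in lung and at 5.78 and 8.13 in TCR (log2 fold change -3.42, SE 0.75), Orc6 at -3.10, Cdc6 at -2.94 and Cdt1 at -1.25. The median of the MCM ring was -1.59, with Mcm4 at -1.001, Mcm6 at -1.02, Mcm3 at -1.50, Mcm2 at -1.69, Mcm5 at -2.17 and Mcm7 at -2.40. Among activators the largest fall of all 40 was that of Gins1, with 1.86, 5.52 and 2.94 in lung and 42.7 and 48.1 in TCR (-3.90, SE 0.42, adjusted p = 0.000283). Mcm10 was at -3.05, Cdc45 at -2.90, Gins3 at -1.66, Gins2 at -1.44 and Gins4 at -1.01.

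Within complexes the falls were uneven. Prim1, the catalytic primase subunit, was at -3.27 and its partner Prim2 at -1.62, and Pole, Pola2, Pold1 and Pola1 were at -2.56, -1.81, -1.69 and -0.96. Rfc4 was at 7.24, 5.42 and 7.82 normalised RPKM in lung and 83.3 and 84.5 in TCR (log2 fold change -3.57, SE 0.22), while Rfc5, Rfc3 and Rfc2, which sit in the same loader, were at -1.63, -1.45 and -1.28. Rpa2 fell by 1.95 on the log2 scale, and Rpa1 was the member that did not pass, at 56.6, 55.6 and 45.8 in lung and 63.3 and 68.3 in TCR (-0.32, SE 0.16, adjusted p = 0.123). Pcna was at 60.4, 71.9 and 58.2 in lung and 480 and 630 in TCR (-3.14, SE 0.17), so it dropped below Mcm6 there. Pcna was 0.658 to 0.694 times Mcm6 in Crlf2-deleted and 0.777 to 0.968 times in control lung Tregs, against 3.58 and 3.69 times with TSLP and 3.76 and 3.93 times in TCR.

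Among the remaining members Lig1 was at -2.81 and Fen1 at -1.63. Rrm1 was at -2.62, Tyms at -2.14, Tk1 at -2.001 and Rrm2 at -1.56. Of the regulators, Ccne2 was at -3.43 from 13 to 23 reads in the control lung libraries, E2f1 at -2.88, Ccne1 at -1.96 and E2f2 at -1.61, and Uhrf1 was at -2.15. All 18 mitosis genes fell too, with Top2a at -3.17, Cenpe at -3.45 and Ube2c at -2.57. Of the further lists, 18 of 28 machinery genes fell and 1 rose (Mcm9, 1.16, a call kept in 5 of 16 alternatives), 15 of 17 of fork protection fell, and 14 of 17 of nucleotide supply fell and 2 rose. The falls with the smallest p in these 3 lists included Ssrp1 (-2.33), Topbp1 (-2.87), Rnaseh2b (-2.85), Tipin (-2.92), Chaf1a (-3.04), Chaf1b (-2.09), Shmt1 (-3.73) and Impdh2 (-2.64). The genes of nucleotide supply that rose were Rrm2b, the reductase subunit of cells outside S phase (2.17, SE 0.46), and Dck (1.09, SE 0.28). On the RPKM scale, where 8.85% of all genes were called higher, they were at 0.35 and 0.12 and did not pass, and without TCR library 1 neither passed (adjusted p = 0.0824 and 0.147), nor did Rrm2b without TCR library 2 (adjusted p = 0.057).

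Among genes of S-phase entry 15 of 28 fell and 5 rose in lung. Cdc25a, the phosphatase that activates cyclin-dependent kinases (-3.05), Cdk4 (-2.31) and Cks1b (-2.25) were lower. Rbl2, the retinoblastoma family member of resting cells (26.6 normalised RPKM in lung, 4.30 in TCR, log2 fold change 2.62, SE 0.23, adjusted p = 0.000121), and the kinase inhibitors Cdkn2d (1.36, SE 0.17) and Cdkn1b (1.08, SE 0.16) were higher. On the RPKM scale Rbl2 was still called, while Cdkn2d was at 0.40 and Cdkn1b at 0.13 and neither passed. The others that rose were the kinase Cdk6 (1.65), which kept its call in 16 of 16 alternatives, and the kinase inhibitor Cdkn1c (2.34), which kept it in 11 of 16. Of markers of other cells, 6 of 8 myeloid and 7 of 8 epithelial and stromal markers tested rose in lung, and of 7 B and plasma cell markers 1 rose and 1 fell. Of 5 erythroid markers 0 passed by edgeR and 4 had an unadjusted p under 0.05. Their part in the lower replication genes was not tested.

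**Figure D5:**
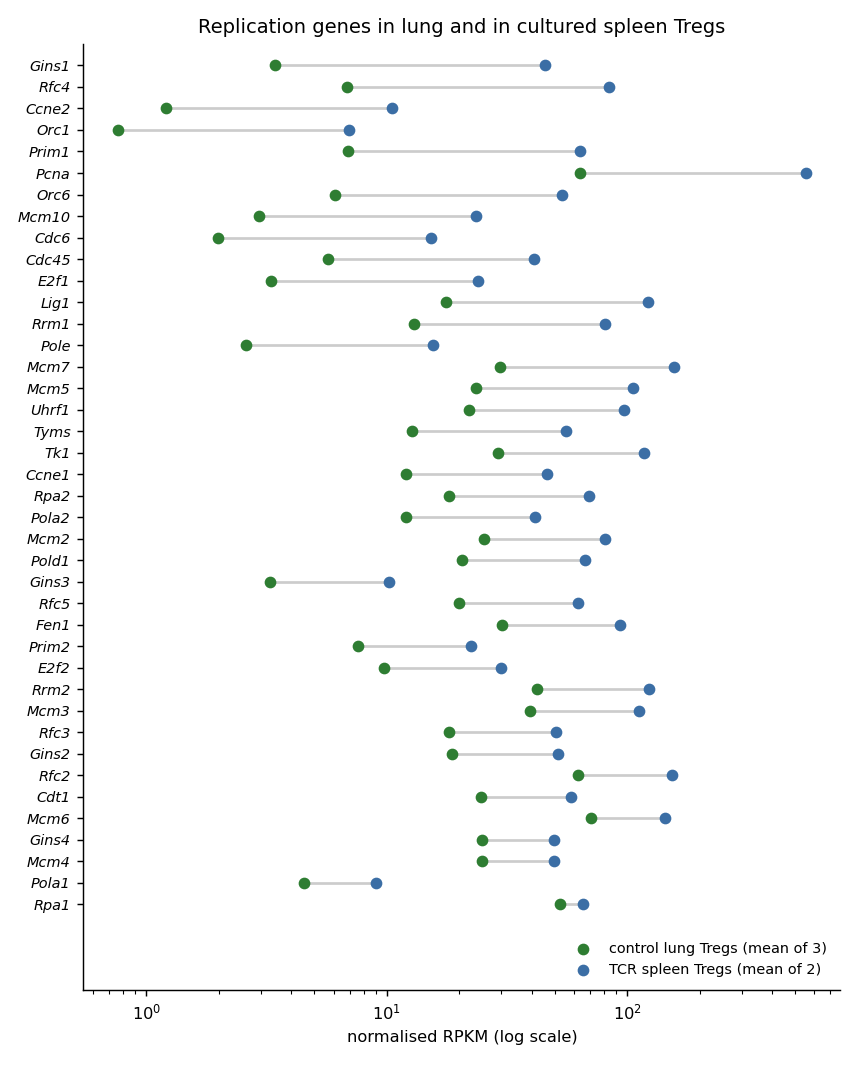
Mean normalised RPKM (log scale) of the 40 genes in control lung Tregs (green, n = 3) and TCR-stimulated spleen Tregs (blue, n = 2), ordered by fold change. Every green point lies left of its blue point, farthest for Gins1 and nearest for Rpa1.

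In order of level, Pcna stood first in the spleen cultures, at 612 ± 29.5 normalised RPKM with TSLP and 550 ± 111 in TCR (SD, n = 2 each), followed by Mcm6 with TSLP (168 ± 4.79) and, in TCR, by Mcm7, Rfc2 and Mcm6 (154 ± 12.1, 152 ± 4.61 and 143 ± 24.3), which lay within each other's spread. The lowest members were Gins3 with TSLP (10.2 ± 0.419) and Orc1 in TCR (6.89 ± 1.72). In lung Mcm6 stood first, at 90.1 ± 3.41 in deleted and 80.2 ± 10.3 in control Tregs (n = 3 each), and Orc1 last, at 0.567 ± 0.315 and 0.861 ± 0.707. The median member was at 54.1 with TSLP, 56.4 in TCR, 12.8 in deleted and 20.2 in control lung Tregs, each on the scale of its own comparison.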

How the data were processed

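RNA of mouse Tregs was measured as deposited counts of whole reads and deposited RPKM per RefSeq transcript on mm10, 31682 rows and 1 library a file, per the file headers. The authors' RPKM used library totals above the reads listed. The submitters' processing notes list edgeR, bedtools 2.25.0, SAMtools 0.1.8, TopHat2 2.2.1 and Bowtie2 2.2.6. Their roles, the strand rule and multimapping are not given in the sources used. Per the labels' protocols TCR-stimulated Tregs were prepared with a stranded total RNA kit after ribosomal RNA depletion and read as 50 bp single ends, and the kit of the lung libraries is not stated separately.

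Each symbol was represented by its transcript of highest mean reads (12 members have several). Groups came from the labels. Counts were tested within each comparison by edgeR 4.0.16 in R 4.3.3 (quasi-likelihood, TMM, filterByExpr with a minimum count of 10, robust, two-sided), with Benjamini-Hochberg adjustment over all genes tested and a threshold of 0.05. Adjusted p-values come from it except where DESeq2 or limma is named. SE is the log2 fold change over the root of F. Members, lists and named genes (those past the threshold, the 6 smallest p of the members, and up to 3 called genes of each further list and direction by p) were chosen with earlier results of these data known. A gene that the rule names is not reported here. Gene spans and overlaps (16 members) come from RefSeq on GRCm38.p6. Alternatives were a replicate block, DESeq2 1.42.0, limma 3.58.1 on log2(RPKM + 1) and log2(RPKM + 0.1), other scalings, no filter, summed transcripts, 1 fit of all groups, loess trends (span 0.3) on length and GC, and leaving out each library. The test was tested on simulated data. It recovered 78 of 97 genes changed 2-fold with TSLP (13041 genes), 32 of 99 in the Crlf2 comparison (12457) and 13 of 96 between lung and spleen (12868). False calls were 8 of 182, 4 of 102 and 3 of 74 in the same order. Few genes were changed, up and down in balance and with no shift in composition. Spread followed its trend with level, with none particular to a gene, and no library was made to stand apart. The simulation therefore does not show recovery or false calls under gene-specific spread, an outlying library or the differences between scalings seen here. Same-group libraries differed by more than sampling noise (chi-square per degree of freedom 5.80 to 161).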

Additional observations from a re-analysis of the deposited data

How the results depend on the processing

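In the TSLP comparison, the counts of members that rose and fell were 21 and 2 with library totals (median log2 fold change 0.27), 21 and 1 with limma on log2(RPKM + 1) (0.38) and on log2(RPKM + 0.1) (0.41), 3 and 1 with all 4 groups in 1 fit (0.086), 14 and 6 with the length trend removed (0.14), and 16 and 4 once length and GC trends were removed (0.15). Without the filter the median was 0.083. With 1 library left out, 7 to 17 rose, 2 to 15 fell, and the median ran from -0.012 (without TCR library 1) to 0.11. Signs turned on log2(RPKM + 1) and log2(RPKM + 0.1) for Gins1 (0.068 and 0.072), Lig1 (0.064 and 0.065), Pold1 (0.067 and 0.069), Rpa2 (0.037 and 0.038) and Tk1 (0.033 and 0.034), with the length trend removed for Gins1 (0.14), and with length and GC trends removed for Gins1 (0.061) and Tk1 (0.074). Mcm4, Pola1 and Rfc2 kept call and direction under all 15 alternatives.

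In the Crlf2 comparison, members that rose and fell were 0 and 4 with DESeq2, 1 and 0 on both RPKM scales (median 0.042 and 0.12, turned in sign), 1 and 7 with all 4 groups in 1 fit, and 0 and 0 with library totals (median -0.15). With 1 library left out, 0 rose and 0 to 1 fell, and the median ran from -0.43 to -0.25.

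Between control lung and TCR Tregs, 0 members rose under any alternative. The median was -1.91 with the replicate block, -1.90 with DESeq2, -1.89 with median-of-ratios factors, -1.74 with library totals, -2.03 without the filter, -2.39 and -2.85 on the RPKM scales (all genes -0.45 and -0.87), -1.998 with all 4 groups in 1 fit, -2.17 with the length trend removed and -2.30 with length and GC trends removed. With 1 library left out 31 to 39 fell, and the median ran from -2.05 to -1.85.

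Deviations of same-numbered libraries had correlations of -0.15 with TSLP, -0.14 to 0.09 in the Crlf2 comparison and 0.03 between lung and spleen. Such values cannot tell whether these libraries share a mouse, culture or batch. With the replicate block 11 rose and 8 fell with TSLP (median 0.05), beside 21.5% of all genes called higher and 22.5% lower. With this block 0 rose and 0 fell in the Crlf2 comparison (median -0.29), beside 0.252% and 0.7% of all genes. Between lung and spleen 0 rose and 39 fell with it, beside 26.3% and 29.4%. With the pairing crossed, chosen after seeing the data, 13 rose and 10 fell with TSLP, beside 27% and 26.8% of all genes. The causes of these changes were not tested. Low depth also limits lung values, as for Orc1, which had as few as 4 reads in a library there.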
